A study of Danio rerio with 24 samples.

Results

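The fndc7 genes form a small zebrafish family named after the fibronectin type III domain, and 6 of the 31087 Ensembl genes measured carry a name of this family. They are fndc7rs1 (ENSDARG00000092469), fndc7rs2 (ENSDARG00000092552), fndc7rs3 (ENSDARG00000093150), fndc7rs4 (ENSDARG00000092813), FNDC7 (ENSDARG00000077096) and fndc7b (ENSDARG00000075676), and 0 other rows of the table had a symbol that begins with fndc7. Symbols were known for 20499 of the 31087 IDs, so a relative without a symbol would not be counted. The members were chosen by their values in these libraries: they stand among the largest differences between GFP+ and GFP- cells of mock larvae. Those differences are therefore given as a description, with no test.

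The fibronectin type III domain is a compact fold of beta strands that recurs in matrix proteins such as fibronectin and tenascin, in cell adhesion molecules and in cell surface receptors. The lateral line senses water flow through the neuromasts, small organs in the skin, each a rosette of hair cells with supporting cells around and beneath them. Neomycin, an aminoglycoside antibiotic, kills the hair cells, and supporting cells give rise to new ones in the following hours and days.

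The RNA came from Tg(sqET20) larvae of 5 days post fertilization whose cells were sorted by GFP into a positive and a negative population. Neomycin larvae were in 300 uM of the drug for 30 min and were sampled 1, 3 or 5 h later, and mock larvae were sampled at 1 h. Each of the 8 groups had 3 libraries, each library came from a pool of 200 larvae and about 30000 living cells, and GFP- cells came from the same transgenic line. Tg(sqET20) is an enhancer trap line whose GFP marks supporting cells of the neuromast among other cells, so the GFP+ sort is a mixture. The libraries of 3 h and 5 h are labelled Apr2012, whereas those of 1 h and of mock are labelled Mar2012. For the 3 h and 5 h comparisons with mock, the treatment, the date and the hour of sampling cannot be told apart. For the 3 h and 5 h comparisons with 1 h, the time after neomycin and the date cannot be told apart either.

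The values are FPKM, in which a gene's fragments are scaled by the length of its transcript and by the fragments mapped in the library, so levels of different genes are compared per length. Total counts are unknown, and the depth of the 24 libraries relative to their median ran from 0.732 to 1.257. The sort was set against marker lists in mock larvae. TSPAN1, a tetraspanin, averaged 171 FPKM in GFP+ and 0.367 FPKM in GFP- cells, and the transcription factor gene sox21a 132 and 3.62 FPKM. Of the 30 supporting cell genes tested, 22 were higher in GFP+ cells on average and 8 lower. Among the 8 were the transcription factor gene SOX3 (45.2 FPKM in GFP+ and 59.4 FPKM in GFP- cells) and the glutamate transporter gene SLC1A3 (3.12 and 61.8 FPKM), which were picked out after their values were seen. The median difference, GFP+ minus GFP- cells on the log2(FPKM + 1) scale, was 2.18 for the supporting cell list but 3.50 for the epidermis list and 1.53 for the hair cell list, and it was -5.18 for the blood list. The GFP+ cells thus hold supporting cell, epidermis and hair cell transcripts together. In sorted bulk RNA, fewer cells of a type and less RNA per cell cannot be told apart.

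In GFP+ cells of mock larvae the family was abundant. The 6 members summed to 3468 to 4288 FPKM in the 3 libraries, 0.216% to 0.327% of all FPKM, and each ranked within the first 370 of 31198 rows by mean level. fndc7rs3 was the highest at 1389.6 ± 134.9 FPKM (mean ± SD, n = 3), followed by fndc7rs4 at 816 ± 115 FPKM. fndc7rs1 at 562 ± 69.5, FNDC7 at 517 ± 86.5 and fndc7b at 486 ± 107 FPKM overlapped between libraries, so their order is not resolved. fndc7rs2 was the lowest at 234 ± 16.4 FPKM and overlapped none of the other 5.

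The same genes were close to 0 in GFP- cells. In GFP- cells of mock larvae fndc7rs3 averaged 2.72 ± 0.601, fndc7b 1.82 ± 0.588, fndc7rs4 1.53 ± 0.328, FNDC7 1.36 ± 0.664, fndc7rs1 1.01 ± 0.468 and fndc7rs2 0.113 ± 0.105 FPKM. The members ran from 74.6 to 1508 FPKM over all 12 GFP+ libraries and from 0 to 6.16 FPKM over all 12 GFP- libraries. In GFP- cells fndc7rs2 was listed at 0 in 3 of 12 libraries, whereas fndc7rs3 and fndc7b were at 1 FPKM or more in all 12. In each of the 4 conditions, a member's GFP- mean was 0.0482% to 0.707% of its GFP+ mean.

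On the log2(FPKM + 1) scale the differences, GFP+ minus GFP- cells of mock larvae, were 8.56 for fndc7rs3, 8.33 for fndc7rs4, 8.15 for fndc7rs1, 7.81 for FNDC7, 7.72 for fndc7rs2 and 7.43 for fndc7b. They ranked 4, 5, 7, 10, 12 and 15 among the 21945 rows that passed the filter on low values (1 FPKM in at least 3 of 24 libraries), and the median over all of these rows was -0.35. All 6 members passed that filter through their GFP+ libraries. In GFP- cells fndc7rs3 and fndc7b reached 1 FPKM in 12, FNDC7 in 10 and fndc7rs4 in 9 of 12 libraries, but fndc7rs1 in 2 and fndc7rs2 in 0, so the last 2 genes passed only through GFP+ cells. Rows with GFP+ libraries all above GFP- libraries made up 22.3% of the table in mock larvae, and since this contrast chose the members nothing is read from it.

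**Figure D1:**
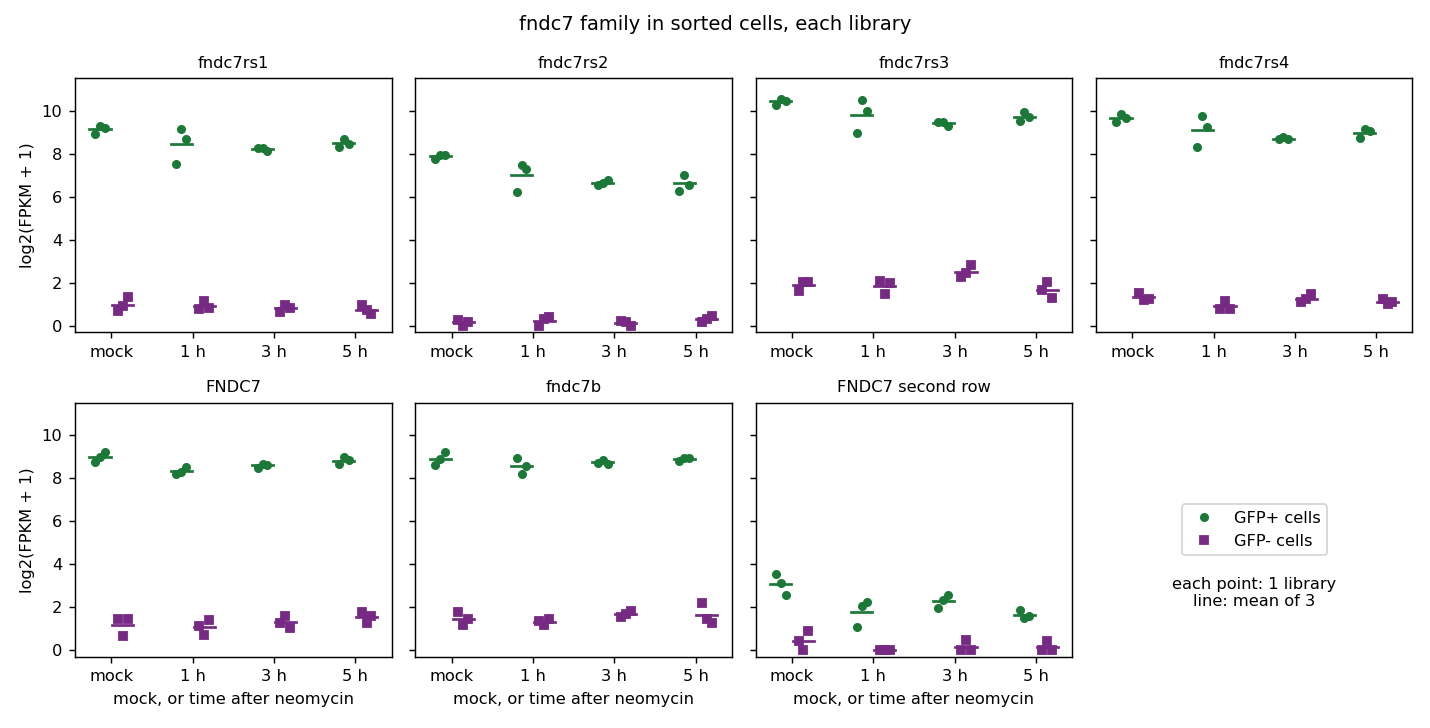
Level of each fndc7 member in each library, as log2(FPKM + 1), in GFP+ cells (circles) and GFP- cells (squares) of mock larvae and 1, 3 and 5 h after neomycin, with lines for the mean of 3 libraries and a panel for the second row of FNDC7. The 6 members lie between 74.6 and 1508 FPKM in GFP+ cells and at or under 6.16 FPKM in GFP- cells.

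GFP+ cells stayed far above GFP- cells after neomycin, in libraries other than the mock ones. The difference was smaller than in mock for each of the 6 members at each time. The choice of members by the mock difference favours that, so nothing is read from it. The limma fit pools the spread over all 24 libraries, mock included. On the log2 scale GFP+ cells exceeded GFP- cells by 6.76 to 8.21 in the 1 h libraries. The excess was 6.53 to 7.43 for 3 h and 6.30 to 8.06 for 5 h. limma called fndc7rs3, fndc7rs4, FNDC7 and fndc7b higher at each time, with adjusted p at most 4.97e-14 at 1 h, 4.96e-13 at 3 h and 7.09e-14 at 5 h. For fndc7rs1 and fndc7rs2, which only GFP+ cells brought past the filter, the values are given with no test. Higher calls made up 22.7%, 23.8% and 24.1% of all rows at these times, and the members ranked between 4 and 24 of 21945. Choice by the mock excess, in the same line and sort, also favours a higher value here. These calls and ranks are therefore given as a description. fndc7rs4 led the members at 1 h and 3 h (8.21 ± 0.24 and 7.43 ± 0.24, log2 difference ± SE) and fndc7rs3 at 5 h (8.06 ± 0.29), and fndc7rs2 was the lowest at each of the 3 times.

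The rows themselves bear on how far single members can be told apart. FNDC7 had 2 rows in the deposited table. These stood directly beside the rows of fndc7rs2, fndc7rs1, fndc7rs3 and fndc7rs4, 6 consecutive rows in all. In RefSeq's gene table for GRCz12tu, another build than danRer7 of the files, fndc7a and fndc7rs1 are neighbours between aknad1 and prpf38b. There fndc7b lies elsewhere, between fbxo30b and stxbp3. The name fndc7rs stands for sequences related to fndc7. How the authors' counting shared reads between related or overlapping genes is not given in the sources used here, so the FPKM of each of the 4 fndc7rs rows and of FNDC7 is uncertain to that extent.

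The second row of FNDC7 was low. It had 10.9, 7.88 and 4.92 FPKM in GFP+ cells of mock larvae, 1.11, 3.14 and 3.77 FPKM at 1 h, 2.94, 4.08 and 4.93 FPKM at 3 h and 2.70, 1.81 and 2.06 FPKM at 5 h. That was 0.36% to 2.52% of the first row in the same library. In GFP- cells it was listed at 0 in 8 of 12 libraries. By limma it was lower than mock in GFP+ cells by -1.30 ± 0.29 at 1 h, -0.80 ± 0.29 at 3 h and -1.43 ± 0.29 at 5 h (adjusted p = 0.00183, 0.0487 and 0.00187). Its 3 h and mock libraries overlapped. In the 12 GFP- libraries this row reached at most 0.857 FPKM, so it passed the filter only through GFP+ cells. The SE pools the spread over these libraries as well. Between GFP+ libraries its SD on the log2 scale was 0.51 in mock and 0.63 at 1 h, so that SE need not suit the GFP+ spread. All statements on FNDC7 below are about the first row.

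The largest member, fndc7rs3, had 1243, 1508 and 1418 FPKM in GFP+ cells of mock larvae, 492, 1463 and 1015 FPKM at 1 h, 717, 709 and 617 FPKM at 3 h and 737, 986 and 825 FPKM at 5 h. All 3 libraries of 3 h and of 5 h lay below all 3 mock libraries, whereas the 1 h libraries spread over a wide range that overlapped mock. The log2 difference from mock was -0.62 ± 0.29 at 1 h (limma, adjusted p = 0.11), -1.03 ± 0.29 at 3 h (adjusted p = 0.0111) and -0.71 ± 0.29 at 5 h (adjusted p = 0.0919). Its mean at 3 h was 49.0% of the mock mean. For this and each other member, the mock GFP+ libraries also entered the contrast that chose it. That choice favours a lower value after neomycin, and the p-values are not independent of it.

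fndc7rs4 had 703, 932 and 811 FPKM in mock, 313, 872.5 and 612 FPKM at 1 h, 404, 432 and 406 FPKM at 3 h and 427, 568 and 524 FPKM at 5 h. The pattern over libraries was that of fndc7rs3, with 3 h and 5 h below mock and 1 h overlapping it. It fell by 0.97 ± 0.24 on the log2 scale at 3 h (adjusted p = 0.00527). The differences of -0.56 ± 0.24 at 1 h and -0.69 ± 0.24 at 5 h did not pass (adjusted p = 0.0889 and 0.0536).

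fndc7rs1 had 487, 623 and 578 FPKM in mock, 182, 569 and 405 FPKM at 1 h, 302, 302 and 274 FPKM at 3 h and 317, 405 and 349 FPKM at 5 h. Again every 3 h and 5 h library lay below every mock library. It fell by 0.93 ± 0.27 at 3 h (adjusted p = 0.015), against -0.68 ± 0.27 at 1 h and -0.65 ± 0.27 at 5 h, which did not pass (adjusted p = 0.062 and 0.107). Without the second mock library its 3 h value of -0.85 did not pass either.

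fndc7rs2, the lowest member, had 215, 241 and 246 FPKM in mock, 74.6, 174 and 155 FPKM at 1 h, 93.4, 97.2 and 110.3 FPKM at 3 h and 76.0, 129.6 and 92.7 FPKM at 5 h. It was the member whose libraries lay below mock at each of the 3 times and the one called lower at each of them. The log2 differences were -0.88 ± 0.23 at 1 h, -1.22 ± 0.23 at 3 h and -1.26 ± 0.23 at 5 h (adjusted p = 0.00583, 0.000611 and 0.000758). Its mean was 57.5%, 42.8% and 42.5% of the mock mean at these times. The SE pools the spread over 24 libraries, and the 12 GFP- libraries had 0 to 0.377 FPKM of fndc7rs2. Between the GFP+ libraries of 1 h its SD was 0.66 on the log2 scale. Of 9 other settings, 6 kept its 1 h call, 8 its 3 h call and 8 its 5 h call. With a pseudocount of 0.1 in place of 1, its calls at 1, 3 and 5 h were all lost. Leaving out any single library kept its call at each time. Each such fit still pooled the GFP- libraries, so this does not show that the SE suits the spread at 1 h. The compared groups fitted alone, with no GFP- library, gave 1 call among the 6 members at 1 h, against 2 in the main fit.

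FNDC7 had 432, 515 and 605 FPKM in mock, 293, 309.9 and 371 FPKM at 1 h, 359, 409 and 392 FPKM at 3 h and 401, 503 and 459 FPKM at 5 h. Its 1 h and 3 h libraries lay below mock and its 5 h libraries overlapped it. It fell by 0.66 ± 0.21 at 1 h (adjusted p = 0.0212), whereas -0.41 ± 0.21 at 3 h and -0.18 ± 0.21 at 5 h did not pass (adjusted p = 0.17 and 0.634). The 1 h call was lost without the 1 h library numbered 1 or 2 or the mock library numbered 2 or 3, with values between -0.54 and -0.66.

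fndc7b had 388, 469 and 600.3 FPKM in mock, 494, 295 and 375 FPKM at 1 h, 417, 455 and 408 FPKM at 3 h and 446, 491 and 494 FPKM at 5 h. It overlapped mock at every time and passed at none. Its log2 differences were -0.33 ± 0.22, -0.17 ± 0.22 and -0.01 ± 0.22 at 1, 3 and 5 h (adjusted p = 0.281, 0.628 and 1).

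Read over the family, 2 of 6 members were called lower at 1 h (fndc7rs2 and FNDC7), 4 of 6 at 3 h (the 4 fndc7rs genes) and 1 of 6 at 5 h (fndc7rs2), and 0 were called higher at any time. Of all rows tested, 19.0%, 8.16% and 4.10% were called lower at these times and 13.9%, 19.9% and 15.1% higher. Libraries below mock without overlap were found for 2 of 6 members at 1 h, 5 of 6 at 3 h and 4 of 6 at 5 h, against 21.5%, 11.8% and 8.28% of all rows. The median log2 difference of the 6 members was -0.64, -0.95 and -0.67, against -0.068, 0.108 and 0.099 over all rows. The 3 comparisons share the mock GFP+ libraries with one another and with the contrast that chose the members. They are therefore not independent of each other or of that choice, which favours values below mock. The shares over all rows carry no such choice, so they are not a matched background. Whether members differed from one another in their change was not tested.

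**Figure D2:**
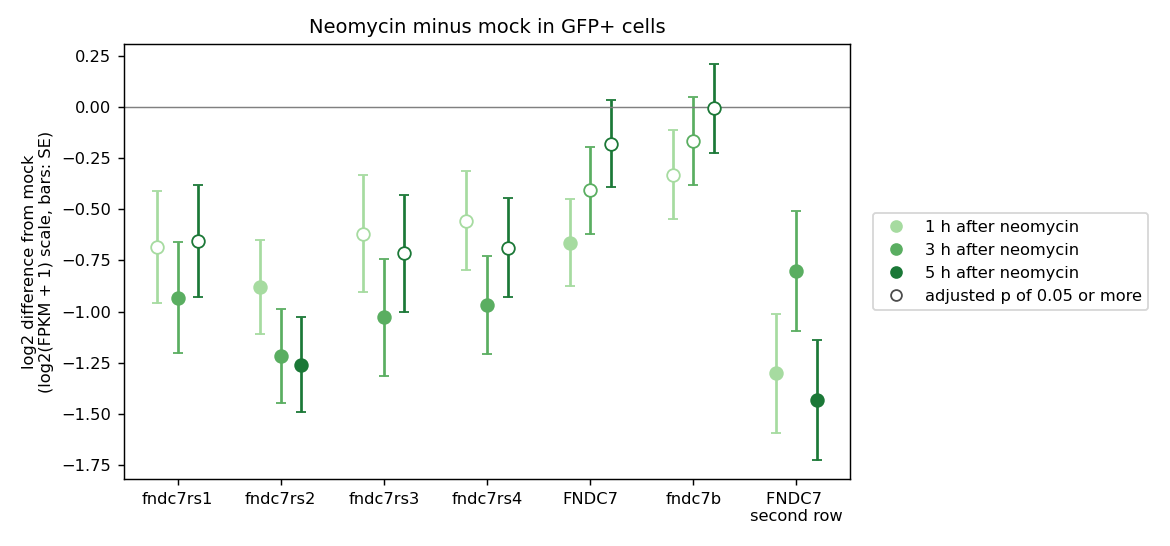
Difference from mock in GFP+ cells at 1, 3 and 5 h after neomycin for each member and for the second row of FNDC7, on the log2(FPKM + 1) scale, with bars for 1 standard error. Filled points are calls at an adjusted p under 0.05 and open points did not pass. The 4 fndc7rs genes lie between -0.93 and -1.22 at 3 h, and fndc7b lies at -0.01 at 5 h.

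How libraries are scaled moves these counts. Median-of-ratios scaling moved the median of all rows from 0.108 to 0 at 3 h and from 0.099 to -0.012 at 5 h. It called 5 of 6 members lower at 3 h, adding FNDC7 at -0.59, and 4 of 6 at 5 h, the 4 fndc7rs genes at -0.83 to -1.44. Under that scaling 13.9% and 8.12% of all rows were called lower at 3 h and 5 h. A pseudocount of 0.1 in place of 1 left 0, 2 and 0 calls at 1, 3 and 5 h, against 19.6%, 7.70% and 3.71% of all rows called lower.

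Between the neomycin times, 0 of 6 members were called. These differences use no mock library, but the mock libraries enter the spread that the fit pools. By limma at an unadjusted p under 0.05 the counts were 0 for 3 h against 1 h, 0 for 5 h against 3 h and 1 for 5 h against 1 h, which was FNDC7 (0.48 ± 0.21, adjusted p = 0.0821). The 5 h libraries of FNDC7 lay above its 1 h libraries without overlap, as for 29.8% of all rows, and its difference passed without the GFP- mock library numbered 2 (0.48). Over all rows 35.8%, 1.76% and 38.6% were called in these comparisons. Those with 1 h cross the labelled dates, so time after neomycin and date cannot be told apart in them. The 3 fndc7rs genes other than fndc7rs2 stood at 0.28 to 0.31 for 5 h against 3 h, with groups that did not overlap for fndc7rs1 and fndc7rs3, against 9.45% of all rows with 5 h above 3 h without overlap. 

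The first and second GFP+ libraries of 1 h stood apart in the fndc7rs genes, in opposite directions. In the first, fndc7rs1, fndc7rs2, fndc7rs3 and fndc7rs4 lay 1.39, 1.13, 1.31 and 1.22 below the mean of the other 2 libraries of the group on the log2 scale. Only 1.13% to 1.64% of 11583 rows lay lower by that measure. These rows passed the filter and averaged 5 FPKM or more in GFP+ libraries. FNDC7 lay 0.21 below and fndc7b 0.57 above. In the second library the fndc7rs genes lay 0.69 to 1.06 above the other 2, and only 1.45% to 2.84% of rows lay higher. There fndc7b lay 0.54 below. At 1 h the SD between libraries was 0.66 to 0.84 for the fndc7rs genes, 0.18 for FNDC7 and 0.37 for fndc7b. The median over the same 11583 rows was 0.209. At 3 h it was 0.05 to 0.12 for the fndc7rs genes, against a median of 0.145.

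The marker lists also differed in the first of these libraries, to unlike degrees. Over all 11583 rows the median relative to the other 2 was -0.07, with an SD of 0.76 between rows. Within the lists below, the SD between genes ran from 0.27 (hair cells) to 1.56 (epidermis). In the first 1 h library the median of the supporting cell list lay at -0.36 relative to the other 2, that of the hair cell list at -0.36, that of the cupula and otolith matrix list at -0.61, that of the epidermis list at 0.20, that of the ionocyte and mucous cell list at 0.87 and that of the blood list at 0.91. Their part in the spread was not tested. Without this library 1 of 6 members was called at 1 h (fndc7rs2, -0.50), 4 of 6 at 5 h, 4 of 6 lower for 3 h against 1 h (the fndc7rs genes, -0.71 to -0.84) and 2 of 6 for 5 h against 1 h. Without the second 1 h library 4 of 6 were called at 1 h (the fndc7rs genes, -0.89 to -1.11) and 4 of 6 at 5 h.

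Some members kept closer ratios to one another than others did from library to library. The rows of the fndc7rs genes and FNDC7 are adjacent, and how reads were shared between them is not given. The part of shared reads in these ratios was not tested. Over the 12 GFP+ libraries fndc7rs3 stayed at 2.25 to 2.70 times fndc7rs1, with an SD of 0.073 for the log2 ratio, and fndc7rs4 at 1.34 to 1.72 times fndc7rs1, with an SD of 0.097. fndc7rs2 ran from 0.24 to 0.443 times fndc7rs1 (SD 0.28), with its lowest ratios at 5 h. FNDC7 ran from 0.545 to 1.61 times fndc7rs1 (SD 0.43) and fndc7b from 0.519 to 2.71 times (SD 0.61). FNDC7 and fndc7b kept closer to each other, at a ratio of 0.592 to 1.11 (SD 0.24).

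For scale, 803 other rows averaged 100 FPKM or more in GFP+ cells, and their ratio to fndc7rs1 had a median SD of 0.585. The smallest was 0.156, for spock2, so none of the 803 was below fndc7rs3 or fndc7rs4, 3 were below fndc7rs2, 81 below FNDC7 and 439 below fndc7b. These ratios describe 12 libraries that also share treatment and date. In mock fndc7rs3 was the highest member and fndc7b the fifth. At 3 h fndc7b, at 427 ± 24.9 FPKM, was second to fndc7rs3, at 681 ± 55.3 FPKM, and overlapped fndc7rs4, at 414 ± 15.6 FPKM.

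**Figure D3:**
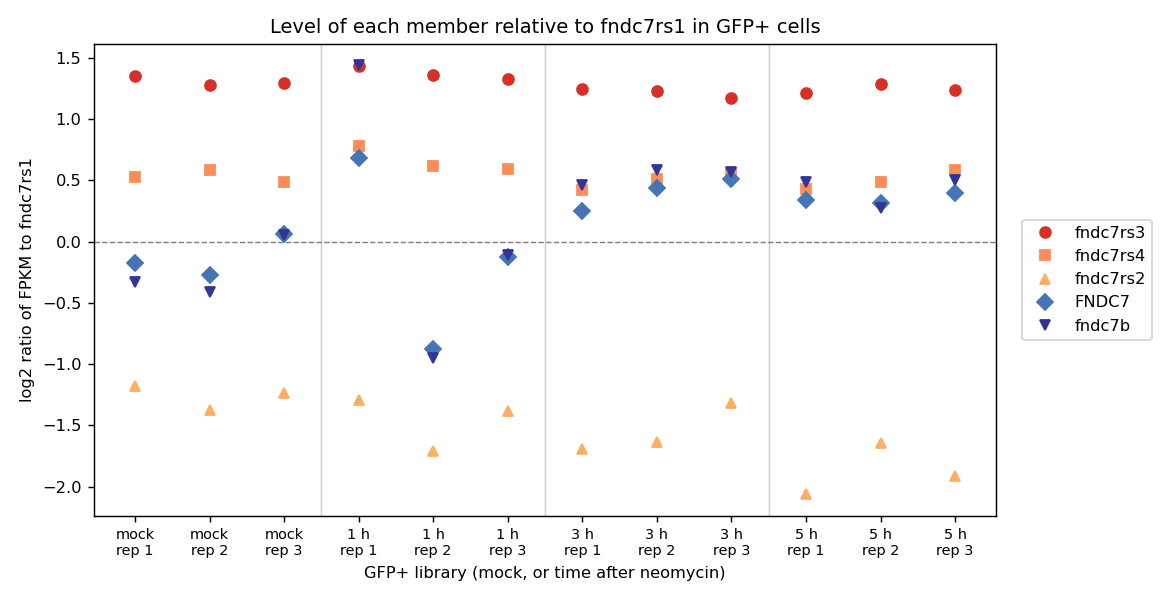
Log2 ratio of the FPKM of 5 members to that of fndc7rs1 in each of the 12 GFP+ libraries, in order of treatment and replicate. fndc7rs3 and fndc7rs4 stay within narrow bands (SD 0.073 and 0.097), while the ratios of FNDC7 and fndc7b vary widely across the 3 libraries of 1 h, in which fndc7rs1 itself had 182, 569 and 405 FPKM.

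Levels in GFP- cells leave little room for a call: fndc7rs2 lay at 0 to 0.377 FPKM there and fndc7rs1 at 0.437 to 1.52 FPKM, so nothing is read from the lack of one for these genes. Of the other 4 members 0 were called against mock in GFP- cells at 1, 3 or 5 h, and by limma at an unadjusted p under 0.05 the counts were 0, 1 and 0. Calls in either direction made up 2.72%, 4.39% and 1.05% of all rows. The 1 member was fndc7rs3 at 3 h, with 3.80, 4.50 and 6.16 FPKM, against 2.03, 3.06 and 3.07 FPKM in mock (log2 difference 0.64 ± 0.29, adjusted p = 0.218). These groups did not overlap, nor did those of 13.7% of all rows with 3 h above mock. fndc7rs4 at 1 h was below mock without overlap (-0.43 ± 0.24, adjusted p = 0.405), as were 13.5% of all rows. At such levels log2(FPKM + 1) understates relative change.

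The change in GFP+ cells minus that in GFP- cells was taken from the same fit. It equals the excess of GFP+ over GFP- cells after neomycin minus that in mock, and the mock excess chose the members, so the choice favours a negative value and the p-values are not independent of it. fndc7rs2 passed the filter only through GFP+ cells, and its level in GFP- cells holds the GFP- part near 0 on this scale. Its value is therefore mostly its change in GFP+ cells against mock. No change particular to GFP+ cells is read from its calls. fndc7rs1 also passed the filter only through GFP+ cells, so nothing is read from its lack of a call. At 3 h the GFP+ change minus the GFP- change was -1.67 ± 0.40 for fndc7rs3 (adjusted p = 0.0196). For fndc7rs2 it was -1.19 ± 0.33 at 3 h (adjusted p = 0.0363) and -1.42 ± 0.33 at 5 h (adjusted p = 0.0262). The other 4 members at 3 h stood at -0.37 to -0.90 and the other 5 at 5 h at -0.17 to -0.55, and none of them passed. At 1 h 0 of 6 passed, and at an unadjusted p under 0.05 there was 1, fndc7rs2 (-0.96 ± 0.33, adjusted p = 0.0561). Lower calls made up 6.45%, 0.820% and 0.232% of all rows at 1, 3 and 5 h. For fndc7rs3 at 3 h the value joins a fall of 1.03 in GFP+ cells to a difference of 0.64 in GFP- cells, and without the 3 h GFP- library numbered 3 it was -1.51 and did not pass. The call of fndc7rs2 at 3 h was lost without any single GFP+ or GFP- library of 3 h, any single GFP+ mock library or the GFP- mock library numbered 2 or 3, at values of -1.12 to -1.26. Its call at 5 h was lost without the GFP+ library of 5 h numbered 1 or 3, the GFP- library of 5 h numbered 2 or 3, the GFP+ mock library numbered 3 or the GFP- mock library numbered 2 or 3, at -1.25 to -1.44. Its value at 1 h passed without the 1 h GFP+ library numbered 2 or 3 or the 5 h GFP+ library numbered 1 or 2, at -0.96 to -1.19.

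The genes most like the family were taken by the distance, over the 8 group means of log2(FPKM + 1), from the mean of the members after each gene was centred on its own mean. Over 14974 named genes this root mean square distance had a median of 3.92, and it was 0.149 to 0.391 for the members themselves. The 5 nearest were cbln18 (ENSDARG00000090969, 0.228), cbln20 (ENSDARG00000087476, 0.286), negaly6 (ENSDARG00000089123, 0.429), TSPAN1 (ENSDARG00000052027, 0.523) and krt1-c5 (ENSDARG00000026979, 0.663). cbln18 and cbln20 belong to the cerebellin family of secreted C1q domain proteins, and krt1-c5 is a keratin gene. Most of this likeness is the step between GFP+ and GFP- cells.

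**Figure D4:**
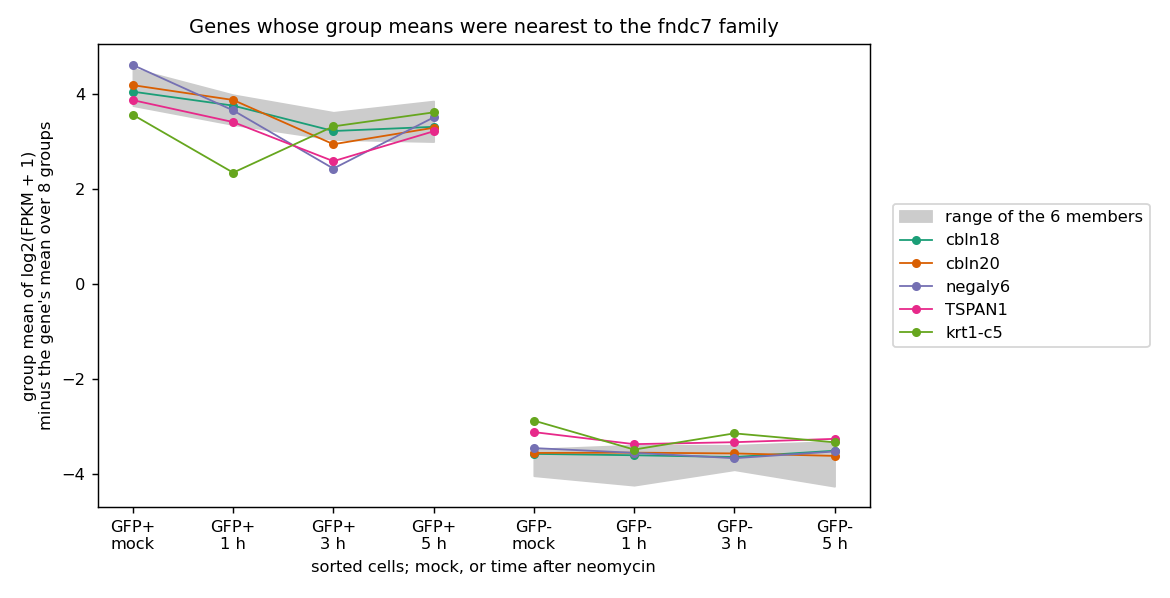
Group means of log2(FPKM + 1), centred on each gene's mean over the 8 groups, for the 5 nearest genes (lines) and the range of the 6 members (band), in GFP+ and GFP- cells of mock larvae and 1, 3 and 5 h after neomycin. All 5 follow the step between GFP+ and GFP- cells. Within GFP+ cells krt1-c5 is lowest at 1 h, as are FNDC7 and fndc7b. The 4 fndc7rs genes are lowest at 3 h or 5 h, and cbln18, cbln20, negaly6 and TSPAN1 at 3 h.

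Within GFP+ cells cbln18, cbln20, negaly6 and TSPAN1 were lowest at 3 h on average, as were fndc7rs1, fndc7rs3 and fndc7rs4. A fall at 3 h was thus not particular to the family. negaly6 averaged 570 FPKM in mock, 125 FPKM at 3 h and 268 FPKM at 5 h, and cbln20 593, 247 and 314 FPKM. krt1-c5 was lowest at 1 h, and over the 1 h libraries the nearest genes parted. TSPAN1 had 168, 188 and 159 FPKM in mock, 73.1, 192 and 135 FPKM at 1 h, 61.3, 79.4 and 69.3 FPKM at 3 h and 87.5, 121 and 119 FPKM at 5 h. As for the fndc7rs genes, its 1 h library numbered 1 was the lowest and that numbered 2 the highest. negaly6 had the same order at 1 h, with 229, 388 and 279 FPKM, against 582, 639 and 489 FPKM in mock.

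cbln18 had 329, 403 and 463 FPKM in mock, 413, 219.9 and 367 FPKM at 1 h, 190.3, 249.8 and 230.3 FPKM at 3 h and 189.9, 239.7 and 289 FPKM at 5 h. cbln20 had 556, 373 and 496 FPKM at 1 h, against 446, 618 and 716 FPKM in mock. As for fndc7b, the 1 h library numbered 1 was the highest and that numbered 2 the lowest for both genes. krt1-c5 stood at 147, 153 and 130.4 FPKM at 1 h, against 322, 329.7 and 350.4 FPKM in mock.

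The other FNDC genes lay far below the level of the family. Of 8 matched FNDC genes and relatives outside it, 7 passed the filter, and the highest in GFP+ cells of mock larvae were FNDC1 at 23.6, FNDC3B at 12.9 and FSD1L at 10.1 FPKM on average, against 3.27, 3.75 and 6.81 FPKM in GFP- cells. Against mock in GFP+ cells, 0 of 7 were called at 1 h, 1 at 3 h (FSD1L, 0.45 ± 0.16, adjusted p = 0.0451, higher) and 0 at 5 h, and by limma at an unadjusted p under 0.05 there was 1 at 1 h, 2 at 3 h and 1 at 5 h. The list's median difference was 0.25, 0.13 and 0.05. FNDC1 stood at -0.35 ± 0.33, -0.82 ± 0.33 and -0.43 ± 0.33 (adjusted p = 0.483, 0.0724 and 0.422).

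Some matrix genes with fibronectin type III domains came nearer: COL12A1, a collagen gene picked out after its values were seen, averaged 191 FPKM in GFP+ cells at 3 h and FN1, fibronectin itself, 164 FPKM, against 100.3 FPKM for fndc7rs2 at that time. Of 28 tested matrix and adhesion genes with fibronectin type III domains, 2 rose and 2 fell at 1 h, 2 rose and 3 fell at 3 h and 1 rose and 2 fell at 5 h, with medians of -0.10, -0.13 and -0.06. Those with the smallest p at 1 h were the neural adhesion gene NRCAM (0.56 ± 0.15), the collagen gene col14a1b (-1.19 ± 0.32) and the adhesion gene l1camb (0.85 ± 0.28). At 3 h they were the receptor phosphatase gene PTPRF (0.62 ± 0.13), col14a1b (-1.18 ± 0.32) and FN1 (0.92 ± 0.27). At 5 h they were col7a1 (-0.70 ± 0.17), a collagen of epidermal anchoring fibrils, the contactin gene CNTN1 (-0.44 ± 0.12) and PTPRF (0.39 ± 0.13).

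Of 19 integrin genes, the receptors that bind fibronectin and other matrix proteins, 3 rose and 3 fell at 1 h, 2 rose and 1 fell at 3 h and 1 rose at 5 h, with medians of -0.04, -0.02 and -0.01. At 1 h the smallest p belonged to ITGA5, the alpha chain of the main fibronectin receptor (1.59 ± 0.20), ITGB4 (1.39 ± 0.18) and ITGA6 (-0.90 ± 0.12). A second alpha 6 gene, itga6b, was the highest of the list in mock and did not share that fall. The list summed to 423 to 634 FPKM at 1 h, against 255 to 368 FPKM in mock. Without itga6b the sums were 231 to 306.5 FPKM at 1 h, against 204 to 285 FPKM in mock. At 3 h and 5 h ITGB6 rose (0.76 ± 0.18 and 0.69 ± 0.18).

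The supporting cell list had 3 of 30 higher and 14 lower at 1 h, 2 higher and 3 lower at 3 h and 4 higher and 3 lower at 5 h, with medians of -0.46, -0.01 and 0.12. The genes with the smallest p at 3 h were krt15 (-1.72 ± 0.24), a keratin of these cells, the transcription factor gene SOX3 (-0.79 ± 0.14) and TSPAN1 (-1.28 ± 0.23). Its summed level in GFP+ cells was 3620.0 to 4091 FPKM in the 3 h libraries, against 5689 to 7180 FPKM in mock. In the 1 h libraries it was 6253 to 6783 FPKM and in the 5 h libraries 3968 to 5168 FPKM. krt15 averaged 1203 FPKM of it at 3 h, against 4019 FPKM in mock, and without krt15 the other 29 genes summed to 2498 to 2814 FPKM at 3 h, against 2513 to 2677 FPKM in mock. The cupula and otolith matrix list, genes of the gel and stones over hair cells, had 0 of 12 higher and 1 lower at 1 h, 1 higher and 1 lower at 3 h and 0 called at 5 h (1 at an unadjusted p under 0.05 by limma).

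Blood markers moved the other way in GFP+ cells, mainly at 3 h. Higher calls against mock made up 13.9%, 19.9% and 15.1% of all rows at 1, 3 and 5 h. Of 16 blood markers, 1 was higher than mock at 1 h, 8 at 3 h and 4 at 5 h, and 0 were lower. Their summed level in GFP+ cells was 495 to 914 FPKM in the 3 h libraries, against 172 to 330.4 FPKM in mock, with 198 to 491 FPKM for 1 h and 356 to 739 FPKM for 5 h. In the 12 GFP- libraries it was 17650 to 34270 FPKM. Of 24 hair cell genes, 2 rose and 2 fell at 1 h, 2 rose and 4 fell at 3 h and 1 rose and 2 fell at 5 h. Their summed level was 1603 to 2663 FPKM in the 3 h libraries, against 3160 to 4065 FPKM in mock, with 3028 to 3688 FPKM for 1 h and 2008 to 2717 FPKM for 5 h. Without s100t and pvalb9, the highest in mock, the sum was 829 to 1272 FPKM at 3 h, against 1120 to 1315 FPKM in mock, and these ranges overlap. Of 22 epidermis genes, 4 rose and 4 fell at 1 h, 2 rose and 6 fell at 3 h and 3 fell at 5 h. Of 15 ionocyte and mucous cell genes 2, 4 and 2 rose at these times, and of 12 neuron genes 2, 4 and 3 rose while 1 fell at 1 h and 1 at 3 h. Of 8 muscle genes 1 rose at 1 h, 1 fell at 3 h and 3 fell at 5 h, and of 8 olfactory and taste cell genes 1 fell at 1 h, 1 rose and 1 fell at 3 h and 0 were called at 5 h (2 at an unadjusted p under 0.05 by limma). The part of these differences in cell content in the values of the fndc7 genes was not tested.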

How the data were processed

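RNA from sorted cells was sequenced in 24 libraries, 8 groups of 3. Per the labels, poly(A) RNA was made into libraries with the TruSeq RNA kit version 2. The authors deposited 1 table of FPKM values. Per the submitters' processing notes, CASAVA 1.8.2, TopHat 1.4.1, Cufflinks 1.3 and the build danRer7 were used. For the annotation release, the treatment of shared reads and any filter, the step is not given in the sources used here.

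Of 31199 rows, 1 exact repeat was dropped, and each remaining row was a feature, since 112 rows repeat an Ensembl ID. Symbols, taken from a gene name reference and not from the deposited table, named 20499 IDs. Symbols in capitals are those of an ortholog, which paralogs can share. Members were found by Ensembl ID. FPKM was transformed to log2(FPKM + 1), features at 1 FPKM or more in at least 3 libraries were kept, and 1 mean per group over all 24 libraries was fitted with limma 3.58.1 (trend) in R 4.3.3. P-values were two-sided and adjusted by Benjamini and Hochberg over all 21945 features, with 0.05 as the threshold. The steps were tested on simulated data. Python 3.11.15 with pandas 2.3.3, numpy 2.4.6 and matplotlib 3.10.9 served for descriptions and plots.

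Total counts are unknown, so no counting interval is given. Relative depth was read from the spacing of values under 0.15 FPKM. The labels do not say that the replicates came from separate experiments, so p-values measure the spread between these libraries, which may be technical. Named genes were all 6 members, up to 3 genes of smallest p in each list and the 5 nearest genes. The 12 lists hold 260 gene names, of which 232 matched. Names in a list that matched the same ID were counted once. Where several IDs shared a symbol, the ID of highest mean level was taken. Members and lists were chosen with earlier results of these data known. Alternatives were another pseudocount, filter and scaling, a fit of the compared groups alone, a replicate block, a minimum fold and leaving out each library.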

Additional observations from a re-analysis of the deposited data

Results flagged for a closer look

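For 2 of the fndc7 genes the change in GFP+ cells minus the change in GFP- cells passed the threshold by limma. That difference subtracts the excess of GFP+ over GFP- cells of mock larvae, which chose the members, so a negative value is favoured by the choice and the p-values are not independent of it. For fndc7rs3 at 3 h the difference was -1.67 on the log2(FPKM + 1) scale (adjusted p = 0.0196), from -1.03 in GFP+ cells and 0.64 in GFP- cells. For fndc7rs2 it was -1.19 at 3 h (adjusted p = 0.0363), from -1.22 in GFP+ cells and -0.03 in GFP- cells. For fndc7rs2 at 5 h it was -1.42 (adjusted p = 0.0262), from -1.26 in GFP+ cells and 0.16 in GFP- cells. fndc7rs2 lay at 0 to 0.377 FPKM in GFP- cells, where its change on this scale is held near 0. No change particular to GFP+ cells is therefore read from its values.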

How the results depend on the processing

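The counts for neomycin against mock in GFP- cells (0) and for GFP+ against GFP- cells (6) had little room to move, given the choice of members and their levels, and nothing is read from their staying the same. Counts of members lower than mock in GFP+ cells were 2, 4 and 1 at 1, 3 and 5 h. A pseudocount of 0.1 gave 0, 2 and 0, and a change of at least 1 on the log2 scale gave 0 at 1 h and 2 at 3 h. A filter at 5 FPKM gave 2 at 5 h, median-of-ratios scaling 5 at 3 h and 4 at 5 h, and the compared groups fitted alone 1 at 1 h and 3 at 5 h. For the change in GFP+ cells minus that in GFP- cells (0, 2 and 1 calls), the pseudocount gave 1 at 3 h and 0 at 5 h, the filter 1 at 1 h, and the compared groups alone 3 at 3 h. Between neomycin times (0 calls each), median-of-ratios scaling gave 1 for 3 h against 1 h and 1 for 5 h against 1 h, and the compared groups alone 1 for 5 h against 1 h. The median difference between GFP+ and GFP- cells of mock larvae was 7.98, against 8.97 with the pseudocount of 0.1 and 8.28 with median-of-ratios scaling. The cause was not tested.

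Deviations from the group means were weakly related between same-numbered libraries, with correlations of 0.077 to 0.17, 0.027 to 0.057 and -0.036 to 0 for 1, 3 and 5 h against mock in GFP+ cells, although 6, 6 and 0 of 6 libraries correlated best with that of their own number, a hint from the data and not the design. A replicate block gave 3 calls at 1 h, 2 at 5 h and 1 for the difference of changes at 1 h. Without the GFP+ libraries numbered 1 the counts were 1 at 1 h, 3 at 5 h, 3 for the difference of changes at 3 h, 4 for 3 h against 1 h and 1 for 5 h against 1 h. Leaving out single libraries gave 1 to 4 calls against mock in the 1 h comparison, 3 to 4 in that of 3 h and 1 to 4 in that of 5 h. Between neomycin times the ranges were 0 to 4 (3 h against 1 h), 0 to 0 (5 h against 3 h) and 0 to 2 (5 h against 1 h), and for the difference of changes 0 to 1, 0 to 3 and 0 to 1 at 1, 3 and 5 h.

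Of values that had not passed, some turned direction. These were the difference of changes of fndc7rs4 at 1 h (-0.13, against 0.19 with the pseudocount and 0.18 without the GFP+ libraries numbered 1), fndc7b for 3 h against 1 h (0.17, against -0.085 with median-of-ratios scaling) and fndc7rs1 for 5 h against 1 h (0.03, against -0.22 with that scaling and -0.35 without the libraries numbered 1). The last setting also turned fndc7rs2 for 5 h against 3 h (-0.04, against 0.082). Leaving out single libraries turned fndc7b against mock at 5 h (-0.16 to 0.16), fndc7rs1 (-0.71 to 0.11) and fndc7b (-0.016 to 0.36) for 3 h against 1 h, and fndc7rs2 for 5 h against 3 h (-0.25 to 0.13). It also turned fndc7rs1 (-0.43 to 0.39), fndc7rs3 (-0.53 to 0.26) and fndc7rs4 (-0.54 to 0.20) for 5 h against 1 h, and in the difference of changes fndc7rs4 at 1 h (-0.46 to 0.28) and fndc7b at 5 h (-0.36 to 0.11). Of the values of single members over all settings, 2276 kept direction and side of the threshold, 37 lost a call, 44 gained one and 19 turned. The first number includes GFP+ against GFP- cells after neomycin, which had little room to move, so stability is not read from it. Taking the first row of each Ensembl ID, a setting chosen after seeing the data, left each count of members called as it was. The values give no read counts, so how much of the spread of low values in GFP- cells is counting error cannot be given.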
